A study of Homo sapiens with 8 samples.

Results

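NF-kappa-B is a family of transcription factors that switch on genes of immune activation and cell survival, and 38 genes of this pathway were followed in the B-cell line JVM13: its subunits, its inhibitors and a set of its targets. The genes were given as a fixed list of names, chosen with earlier results of these data known. Counts over the list, also those set beside shares of all genes, are therefore a description. Each gene was read through the brightest probe set annotated to it alone, by mean over all 8 arrays. Probe sets of this kind were present for 36 of the 38, among 18231 genes in all; TRAF2 and BIRC3 were not analysed here. JVM13 is an established human line from a B-cell prolymphocytic leukaemia. A vector induced by doxycycline brought in the T286A form of cyclin D1 (n = 3 arrays) or its wild-type form (n = 3), and an empty vector served as the control (n = 2). All groups, controls included, were given 0.1 µg/mL doxycycline, and RNA was hybridised to an Affymetrix expression array. The T286A form lacks a phosphorylation site through which cyclin D1 leaves the nucleus and is degraded. The labels do not say whether replicates were separate cultures, whether a construct was 1 clone or how long induction lasted, so the p-values cover only the spread among these arrays, and that spread may be technical.

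NF-kappa-B subunits pair through a shared Rel domain and are held out of the nucleus by inhibitor proteins of the IkB family. In the canonical branch, signals from antigen, CD40 or Toll-like receptors lead to phosphorylation and loss of IkB, which frees dimers of RELA or REL with the NFKB1 product p50. In the non-canonical branch, the kinase NIK (MAP3K14) drives processing of the NFKB2 product p100 to p52, the partner of RELB, while TRAF2, TRAF3 and the ubiquitin ligases BIRC2 and BIRC3 keep NIK low. Many targets feed back on the pathway, among them the inhibitors NFKBIA and TNFAIP3 and the subunits NFKB2 and RELB. B cells use the pathway to survive and to display co-stimulatory molecules.

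The labels of constructs and control were checked first. CCND1, the cyclin D1 gene, read 11.25, 10.86 and 10.95 in T286A cells, 10.98, 11.13 and 11.07 in wild-type cells and 5.25 and 4.98 in empty vector cells (log2), so every construct array lay above both controls. Its other probe sets, with means of 4.03 to 4.45, differed from empty vector by -0.09 to 0.04 with T286A and by -0.03 to 0.10 with wild type. Between the forms CCND1 differed by -0.04, so this check cannot tell T286A from wild type. All 9 measured B-cell markers were at or above the median level of all genes (5.94, log2), with means of 7.94 to 13.3. Array means of that list were 11.01 to 11.06 in T286A cells, 10.96 to 10.99 in wild-type cells and 11.07 to 11.08 in empty vector cells, so they too were lower on every construct array; their part in the results was not tested. Also at or above the median level of all genes were 1 of 10 T and NK markers (CD7), 1 of 10 monocyte markers (ITGAM) and 2 of 8 stromal and endothelial markers (PDGFRB and PECAM1). Array means of the monocyte list were 4.86 to 4.95 in T286A cells, 4.93 to 4.96 in wild-type cells and 4.98 to 5.04 in empty vector cells, and its defining genes CD14 and LYZ averaged 4.62 and 4.17, below that median; its part in the results was not tested. Wild-type replicate 2 stood apart, with an array weight of 0.513 in limma against 0.85 to 1.44 in the others, so counts are also given without it.

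Values are deposited log2 expression values, on which 1 unit is a doubling, and differences are log2 differences of group means ± SE. Tests are limma's moderated test over all 18231 genes with all 8 arrays in 1 fit. A gene was called, and is said to have risen or fallen, at a Benjamini-Hochberg adjusted p under 0.05.

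Most NF-kappa-B members had lower means with cyclin D1 than with empty vector, 30 of 36 with T286A and 31 of 36 with wild type, and 0 rose (against 0.34% of all genes called higher with T286A and 0.603% with wild type). In T286A cells 4 of 36 members fell, against 0.192% of all genes called lower: the receptor CD40, the adaptor TRAF1, the adhesion molecule ICAM1 and the caspase-8 inhibitor CFLAR. In wild-type cells 13 of 36 fell, against 1.14% of all genes. They were the same 4 together with NFKB2, RELB, NFKBIE, TNFAIP3, TNIP1, LTA, TNFAIP2, CD83 and EBI3. The median over the 36 members was -0.22 for T286A and -0.25 for wild type, while the medians over all genes were -0.0030 and 0.0016. These comparisons share the same 2 control arrays, so they are not independent. Of the 36, 21 were lower on all 6 cyclin D1 arrays than on both control arrays, against 6.88% of all genes, and 0 were higher on all 6, against 6.68%. Taken singly, 23 members were lower on every T286A array than on both controls, against 16.7% of all genes, and 1 was higher, against 15.2%. With wild type 25 were lower on every array, against 15.3%, and 1 was higher, against 15.2%. RNA came from bulk cultures, in which fewer cells expressing a gene and less RNA per cell cannot be told apart.

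At an unadjusted limma p under 0.05, 19 of 36 members were lower and 0 higher in T286A cells, and 19 were lower and 0 higher in wild-type cells. Over all genes those counts were 1121 lower and 1084 higher with T286A, and 1352 lower and 1109 higher with wild type, of 18231. The number of called members moved with single arrays. For T286A it was 0 without T286A replicate 1, 2 or 3 or without either empty vector replicate, 1 without wild-type replicate 1 or 3, and 4 without wild-type replicate 2. Calls over all 18231 genes moved as well: there were 97 with all arrays, 1 to 3 in the fits with 0 members called, 26 and 31 without wild-type replicates 1 and 3, and 87 without wild-type replicate 2. For wild type it was 7 without wild-type replicate 2, 5 and 8 without wild-type replicates 1 and 3, 7, 7 and 6 without T286A replicates 1, 2 and 3, and 1 without either empty vector replicate. Over all genes the 317 calls for wild type became 43 and 22 without empty vector replicates 1 and 2, and 153 to 196 without 1 of the other arrays. A fit without 1 empty vector array has a single control, which is then assumed to vary like the other groups.

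**Figure D1:**
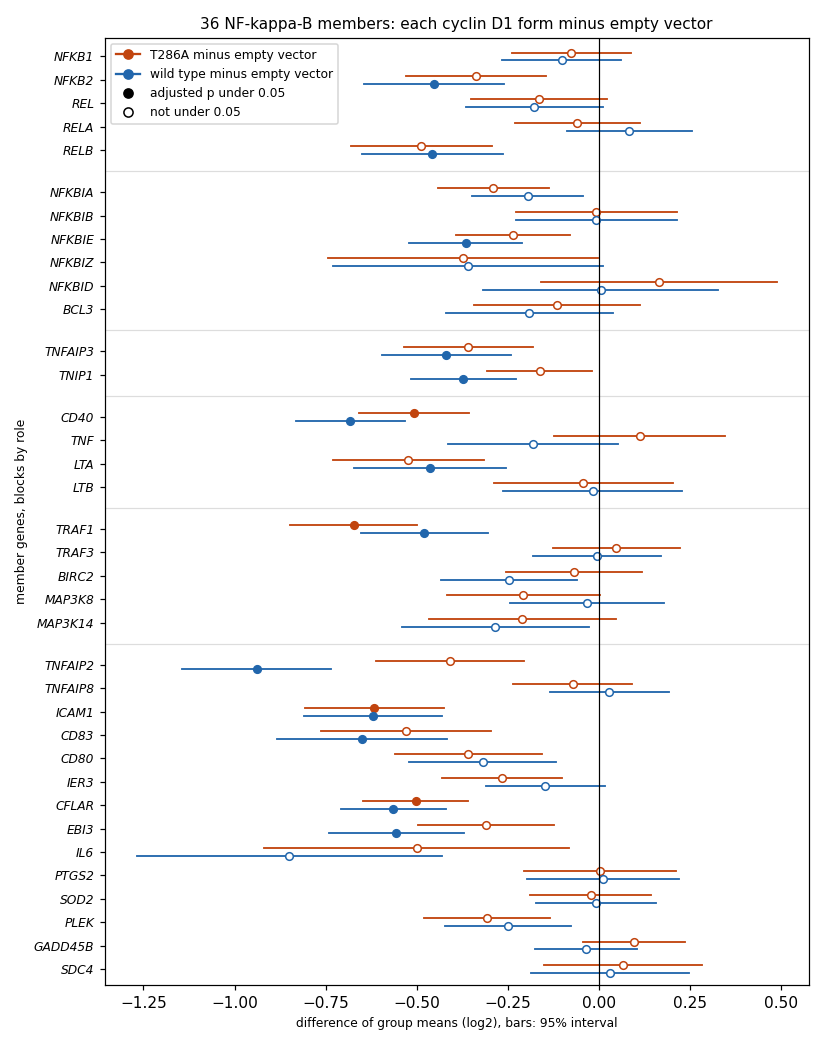
Differences from empty vector (log2, horizontal axis) of the 36 members, in blocks by role, for T286A (red) and wild-type (blue) cyclin D1. Bars are 95% intervals from limma and filled points have an adjusted p under 0.05; every filled point lies below 0, 4 for T286A and 13 for wild type.

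The starts of many members carry letters that NF-kappa-B is known to bind. RefSeq promoter windows (GRCh38.p14, 250 bases before to 50 after an annotated start) were found by symbol for 34 of the 38 genes, in 59 windows; RELB, NFKBIE, CD40 and IER3 had no entry. The NF-kappa-B consensus of 10 bases, searched on both strands, was in 27 of 59 member windows (45.8%), against 11.3% of all 35116 windows. A narrower motif that overlaps it, GGG and TTCC with any 3 bases between them, was likewise searched on both strands and was in 22 of 59 (37.3%), against 6.52%. By gene, the consensus was in 7 of 10 called members with an entry and in 13 of 22 measured members that were not called, against 13.3% of all 27305 genes with an entry. TRAF1, TNFAIP2 and ICAM1, called lower, had no match in their windows. A match is a description of the letters and not a measured site. The rule for the list did not use sequence, but it named NF-kappa-B subunits, inhibitors and targets. A higher share than over all windows was therefore likely from the start and is no independent support.

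Stretches of 130 bases just before the start are shown for 3 members that fell (TNFAIP3, CFLAR and TNIP1) and for 4 with a match that were not called (NFKB1, REL, NFKBIA and TRAF3), read along the gene's strand with the consensus matches of either strand in capitals. In REL the capitals join 2 overlapping matches.
TNFAIP3, chr6:137867129-137867258, strand +: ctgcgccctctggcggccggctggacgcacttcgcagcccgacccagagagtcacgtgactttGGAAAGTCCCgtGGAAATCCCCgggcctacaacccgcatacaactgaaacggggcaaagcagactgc
CFLAR, chr2:201118586-201118715, strand +: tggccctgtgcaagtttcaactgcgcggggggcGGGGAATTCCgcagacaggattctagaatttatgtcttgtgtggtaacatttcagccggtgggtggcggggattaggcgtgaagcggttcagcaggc
TNIP1, chr5:151081035-151081164, strand -: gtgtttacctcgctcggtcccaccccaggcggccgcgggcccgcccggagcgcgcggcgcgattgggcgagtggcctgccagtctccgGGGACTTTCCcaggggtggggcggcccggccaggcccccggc
NFKB1, chr4:102501229-102501358, strand +: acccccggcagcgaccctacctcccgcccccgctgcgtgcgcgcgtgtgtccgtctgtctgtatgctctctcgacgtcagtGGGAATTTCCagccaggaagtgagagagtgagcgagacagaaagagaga
REL, chr2:60881444-60881573, strand +: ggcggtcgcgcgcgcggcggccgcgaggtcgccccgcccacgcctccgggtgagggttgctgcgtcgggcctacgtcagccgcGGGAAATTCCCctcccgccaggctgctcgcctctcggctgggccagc
NFKBIA, chr14:35404750-35404879, strand -: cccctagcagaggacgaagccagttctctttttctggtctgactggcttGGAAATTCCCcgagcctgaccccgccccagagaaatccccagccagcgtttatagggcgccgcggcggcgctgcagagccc
TRAF3, chr14:102777319-102777448, strand +: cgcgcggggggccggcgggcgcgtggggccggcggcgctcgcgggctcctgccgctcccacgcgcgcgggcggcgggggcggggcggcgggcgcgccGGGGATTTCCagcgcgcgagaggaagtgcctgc

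For 4 other members that fell, a match to the narrower motif is shown with 10 bases on each side, read along the gene's strand with the match, which may lie on either strand, in capitals.
NFKB2, chr10:102394462-102394491, strand +: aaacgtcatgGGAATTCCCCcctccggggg
CD83, chr6:14117688-14117717, strand +: tgcccgccggGGAATCCCCCgggctggcgc
LTA, chr6:31572175-31572204, strand +: tctaagccctGGGGGCTTCCccgggcccca
EBI3, chr19:4229299-4229328, strand +: ccccaccctcGGGGCCTTCCgagcaggggt
The plot of match positions sets all of these on the distance from the start. TNFAIP3 has a pair of matches that begin at -67 and -55, while CFLAR has 1 at -97 and TNIP1 has 1 at -42. NFKB1, REL and NFKBIA, whose levels were not called, have matches that begin at -49, -47 and -81.

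**Figure D2:**
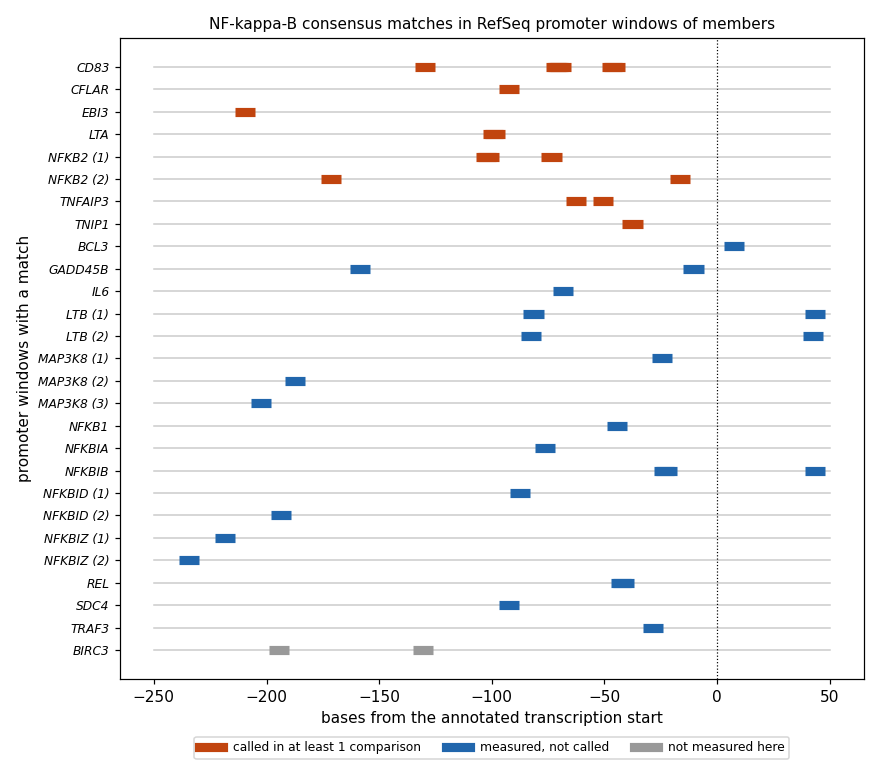
Positions of consensus matches (blocks) in the 27 member windows that hold one, in bases from the annotated start (horizontal axis); genes with several such windows are numbered. Red marks members called in at least 1 comparison, blue those measured and not called and grey BIRC3, not measured here; matches occur in red and blue rows alike.

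Among the 5 subunits, those of the non-canonical branch were the ones that fell, and they fell with wild type. NFKB2, which encodes p100 and p52, read 6.79, 6.88 and 6.91 in T286A cells, 6.62, 6.75 and 6.86 in wild-type cells and 7.20 and 7.20 in empty vector cells. All 6 cyclin D1 arrays lay below both controls. The difference was -0.34 ± 0.084 (adjusted p = 0.137) for T286A and -0.45 ± 0.084 (adjusted p = 0.0409) for wild type. RELB, the partner of p52, read 6.71, 6.65 and 6.85 in T286A cells, 6.74, 6.72 and 6.85 in wild-type cells and 7.18 and 7.27 in empty vector cells. Its construct arrays again lay below the controls, without overlap. The difference was -0.49 ± 0.084 (adjusted p = 0.0546) for T286A and -0.46 ± 0.084 (adjusted p = 0.0398) for wild type, so T286A missed the threshold at a value of similar size. Between the forms, RELB differed by -0.03 (95% interval -0.20 to 0.14) and NFKB2 by 0.12 (-0.06 to 0.29).

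The canonical subunits were not called in any comparison. RELA, the main transactivating subunit, read 9.02, 8.89 and 8.95 in T286A cells, 9.06, 9.05 and 9.18 in wild-type cells and 8.98 and 9.04 in empty vector cells. Its T286A and control arrays overlapped, and its wild-type arrays all lay slightly above the controls. The differences were -0.06 ± 0.075 (adjusted p = 0.835) for T286A and 0.08 ± 0.075 (adjusted p = 0.708) for wild type. REL, the subunit c-Rel that is prominent in B cells, read 9.57, 9.71 and 9.72 in T286A cells, 9.77, 9.60 and 9.60 in wild-type cells and 9.82 and 9.84 in empty vector cells. Each construct array was below the controls, with differences of -0.17 ± 0.082 (adjusted p = 0.486) with T286A and -0.18 ± 0.082 (adjusted p = 0.401) with wild type. NFKB1, which encodes p105 and p50, read 10.78, 10.82 and 10.76 in T286A cells, 10.67, 10.82 and 10.80 in wild-type cells and 10.88 and 10.85 in empty vector cells. Here too the construct arrays lay below the controls, but the differences of -0.08 with T286A (95% interval -0.24 to 0.09) and -0.10 with wild type (-0.27 to 0.06) were small. NFKB2 and RELB had 1 probe set each. The 3 probe sets of RELA differed in sign for wild type.

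Of the IkB family, NFKBIE alone fell, again with wild type. NFKBIE, which encodes the cytoplasmic inhibitor IkB-epsilon, read 8.73, 8.76 and 8.74 in T286A cells, 8.66, 8.65 and 8.53 in wild-type cells and 8.97 and 8.99 in empty vector cells. T286A arrays lay between wild-type arrays and controls without overlap. The difference was -0.24 ± 0.068 (adjusted p = 0.191) for T286A and -0.37 ± 0.068 (adjusted p = 0.0404) for wild type. NFKBIA, the gene of IkB-alpha and a classic NF-kappa-B target, read 11.89, 11.85 and 11.93 in T286A cells, 11.93, 11.99 and 12.04 in wild-type cells and 12.17 and 12.19 in empty vector cells. All construct arrays were below the controls, yet neither difference was called, at -0.29 ± 0.067 (adjusted p = 0.111) for T286A and -0.20 ± 0.067 (adjusted p = 0.237) for wild type. Its 3 probe sets gave -0.20, -0.19 and -0.20 with wild type. NFKBIB, which encodes IkB-beta, read 7.41, 7.71 and 7.60 in T286A cells, 7.62, 7.48 and 7.62 in wild-type cells and 7.59 and 7.57 in empty vector cells. The 3 groups overlapped and the differences from empty vector were -0.01 with T286A and -0.01 with wild type (95% interval -0.23 to 0.21 for each).

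The nuclear members of the IkB family, which act inside the nucleus on NF-kappa-B dimers, were not called. BCL3, a partner of p50 and p52, read 6.70, 6.95 and 6.74 in T286A cells, 6.83, 6.61 and 6.71 in wild-type cells and 6.96 and 6.86 in empty vector cells. Wild-type arrays lay below the controls and T286A arrays overlapped them, at -0.12 ± 0.10 (adjusted p = 0.729) for T286A and -0.19 ± 0.10 (adjusted p = 0.468) for wild type. NFKBIZ, which encodes IkB-zeta, read 9.53, 9.90 and 9.86 in T286A cells, 9.69, 10.06 and 9.58 in wild-type cells and 10.21 and 10.06 in empty vector cells. Its replicates were spread widely, with differences of -0.37 ± 0.16 (adjusted p = 0.41) for T286A and -0.36 ± 0.16 (adjusted p = 0.387) for wild type. NFKBID, which encodes IkB-NS, was below the median level of all genes and averaged 5.40 in T286A cells, 5.24 in wild-type cells and 5.23 in empty vector cells. It stood at 0.16 for T286A (adjusted p = 0.728).

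Both genes of the A20 circuit fell with wild type. TNFAIP3, which encodes the ubiquitin-editing enzyme A20 that ends NF-kappa-B signalling, read 10.99, 11.12 and 11.04 in T286A cells, 10.91, 11.03 and 11.03 in wild-type cells and 11.46 and 11.36 in empty vector cells. Every construct array was below both controls. The difference was -0.36 ± 0.077 (adjusted p = 0.093) for T286A and -0.42 ± 0.077 (adjusted p = 0.0398) for wild type, and its other probe set gave -0.47 with wild type. TNIP1, which encodes the A20-binding protein ABIN1, read 9.86, 9.83 and 9.77 in T286A cells, 9.60, 9.63 and 9.61 in wild-type cells and 9.99 and 9.98 in empty vector cells. Its 3 groups did not overlap: wild-type arrays were lowest and controls highest. The difference was -0.16 ± 0.063 (adjusted p = 0.347) for T286A and -0.37 ± 0.063 (adjusted p = 0.028) for wild type, and all 8 probe sets of TNIP1 were negative with wild type, between -0.37 and -0.19.

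CD40, the receptor through which T-cell help reaches B cells, was called with both forms. It read 10.84, 10.79 and 10.79 in T286A cells, 10.58, 10.67 and 10.65 in wild-type cells and 11.35 and 11.28 in empty vector cells. The groups did not overlap, with wild-type arrays lowest. CD40 fell to 70.4% of its empty vector level with T286A, a difference of -0.51 ± 0.066 (adjusted p = 0.0288), and to 62.3% with wild type, -0.68 ± 0.066 (adjusted p = 0.00345). Its other probe set gave -0.44 with T286A and -0.59 with wild type. LTA, the ligand lymphotoxin-alpha, read 8.79, 8.76 and 8.79 in T286A cells, 8.74, 8.79 and 9.003 in wild-type cells and 9.36 and 9.25 in empty vector cells. Construct arrays lay below the controls. LTA was at -0.52 ± 0.091 (adjusted p = 0.0546) for T286A and -0.46 ± 0.091 (adjusted p = 0.049) for wild type; the larger difference is the one that missed the threshold. Its other probe set gave smaller differences, -0.20 with T286A and -0.24 with wild type. TNF, the ligand neighbouring LTA in the genome, averaged 8.67 in T286A cells, 8.38 in wild-type cells and 8.56 in empty vector cells. It was not called, at 0.11 ± 0.10 (adjusted p = 0.755) for T286A and -0.18 ± 0.10 (adjusted p = 0.502) for wild type. LTB, which encodes lymphotoxin-beta, differed by -0.04 for T286A and -0.02 for wild type, and its groups overlapped.

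TRAF1, an adaptor of TNF receptors that is itself a target, was the single called gene among 5 measured adaptors, ubiquitin ligases and kinases. It read 8.86, 8.93 and 8.91 in T286A cells, 9.05, 9.20 and 9.04 in wild-type cells and 9.62 and 9.53 in empty vector cells. The groups did not overlap and T286A arrays were lowest. TRAF1 fell to 62.7% of its empty vector level with T286A, -0.67 ± 0.076 (adjusted p = 0.0183), and to 71.7% with wild type, -0.48 ± 0.076 (adjusted p = 0.0232). Its 3 probe sets gave -0.67, -0.63 and -0.45 with T286A and -0.48, -0.51 and -0.50 with wild type. BIRC2, the ubiquitin ligase cIAP1, was at -0.07 ± 0.081 (adjusted p = 0.819) for T286A and -0.25 ± 0.081 (adjusted p = 0.221) for wild type. TRAF3, which restrains NIK, averaged 9.86 in T286A cells, 9.81 in wild-type cells and 9.82 in empty vector cells, with overlapping groups. MAP3K14, the kinase NIK, was at -0.21 ± 0.11 (adjusted p = 0.519) for T286A and -0.28 ± 0.11 (adjusted p = 0.314) for wild type. MAP3K8, a kinase released from p105, lay below the median level of all genes and differed by -0.21 for T286A and -0.03 for wild type, neither called. Its other, dimmer probe set gave 0.10 for T286A and -0.27 for wild type, also not called.

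The other 14 targets held the largest called difference. TNFAIP2, a protein induced by TNF, read 7.78, 7.91 and 7.79 in T286A cells, 7.21, 7.41 and 7.27 in wild-type cells and 8.31 and 8.16 in empty vector cells. Wild-type arrays were lowest, T286A arrays lay between and controls were highest, without overlap. The level was 75.3% of empty vector with T286A, -0.41 ± 0.089 (adjusted p = 0.0934), and fell to 52.1% with wild type, -0.94 ± 0.089 (adjusted p = 0.00345). Its other 4 probe sets were also negative with wild type, between -0.71 and -0.40, but none of these 4 was called. ICAM1, which binds the integrin LFA-1 on other leukocytes, read 9.36, 9.17 and 9.38 in T286A cells, 9.28, 9.27 and 9.35 in wild-type cells and 9.88 and 9.96 in empty vector cells. T286A and wild-type arrays overlapped each other and lay below the controls. ICAM1 fell in each, with differences of -0.62 ± 0.083 (adjusted p = 0.0315) with T286A and -0.62 ± 0.083 (adjusted p = 0.0129) with wild type. CFLAR, which encodes the caspase-8 inhibitor c-FLIP, read 11.03, 10.98 and 11.04 in T286A cells, 10.96, 10.96 and 10.95 in wild-type cells and 11.56 and 11.48 in empty vector cells. Its construct arrays lay below the controls, and its T286A arrays lay just above its wild-type arrays. CFLAR fell by 0.50 ± 0.063 (adjusted p = 0.0243) with T286A and by 0.56 ± 0.063 (adjusted p = 0.00613) with wild type. All 8 of its other probe sets were negative with wild type, from -0.49 to -0.05, and averaging all 9 gave -0.29. With T286A 7 of these 8 were negative, from -0.57 to -0.27, and the dimmest was at 0.10; averaging all 9 gave -0.35.

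Surface and secreted products of activated B cells followed. CD83, an activation marker, read 8.89, 8.78 and 8.87 in T286A cells, 8.88, 8.56 and 8.73 in wild-type cells and 9.31 and 9.45 in empty vector cells. The construct arrays lay below the controls and overlapped each other. CD83 was at -0.53 ± 0.10 (adjusted p = 0.0697) for T286A and -0.65 ± 0.10 (adjusted p = 0.0215) for wild type. EBI3, a subunit of the cytokine IL-27, read 10.36, 10.32 and 10.25 in T286A cells, 9.98, 10.03 and 10.18 in wild-type cells and 10.65 and 10.59 in empty vector cells. The 3 groups did not overlap, with wild type lowest. EBI3 was at -0.31 ± 0.081 (adjusted p = 0.153) for T286A and -0.56 ± 0.081 (adjusted p = 0.0163) for wild type. CD80, the co-stimulatory ligand of CD28, was lower on all construct arrays but not called, at -0.36 ± 0.088 (adjusted p = 0.132) for T286A and -0.32 ± 0.088 (adjusted p = 0.142) for wild type. IL6, the cytokine interleukin-6, read 5.27, 5.08 and 5.23 in T286A cells, 4.52, 4.83 and 5.17 in wild-type cells and 5.87 and 5.52 in empty vector cells. All arrays lay below the median level of all genes and the construct arrays lay below the controls, but the differences of -0.50 ± 0.18 (adjusted p = 0.311) for T286A and -0.85 ± 0.18 (adjusted p = 0.0664) for wild type were not called. The other, dimmer probe set of IL6 gave only -0.03 with T286A and -0.11 with wild type.

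The remaining 7 targets were not called. PLEK, the leukocyte protein pleckstrin, was lower on every construct array, at -0.31 ± 0.075 (adjusted p = 0.133) for T286A and -0.25 ± 0.075 (adjusted p = 0.183) for wild type. So was the early response gene IER3, at -0.27 ± 0.072 (adjusted p = 0.159) for T286A and -0.15 ± 0.072 (adjusted p = 0.432) for wild type. TNFAIP8, the mitochondrial superoxide dismutase SOD2, the stress gene GADD45B, the cyclooxygenase PTGS2 and the syndecan SDC4 differed from empty vector by -0.07 to 0.09 with T286A and by -0.04 to 0.03 with wild type. These are their brightest probe sets, and dimmer ones could differ more. Those of GADD45B gave -0.23, -0.08 and -0.04 with wild type and 0.01, 0.08 and 0.11 with T286A. That of TNFAIP8 gave -0.20 with T286A and -0.11 with wild type, and none of these was called. PTGS2 and SDC4 were below the median level of all genes. GADD45B was higher on all T286A arrays than on the controls, at 0.09 (adjusted p = 0.611).

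**Figure D3:**
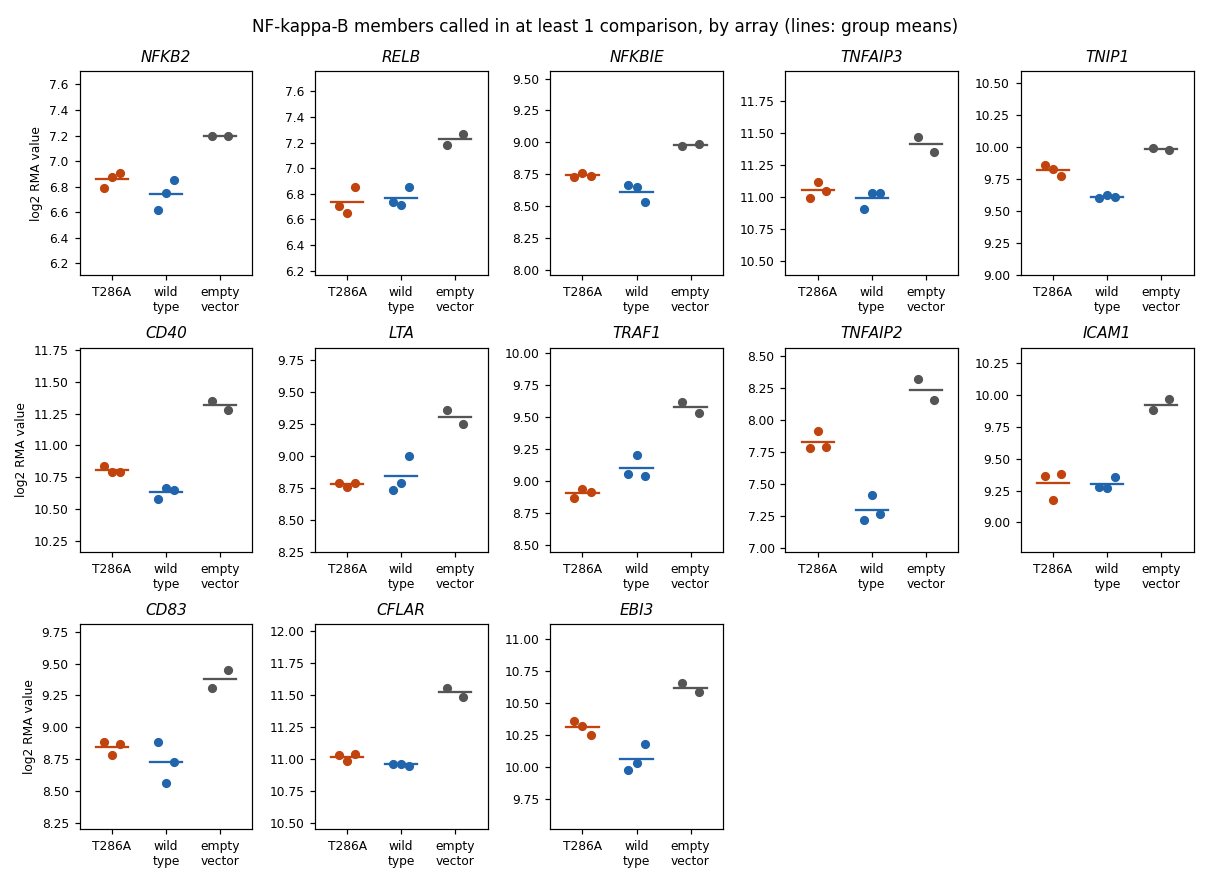
Log2 expression values (vertical axes, all spanning the same range) of the 13 members called in at least 1 comparison, by array, for T286A, wild type and empty vector; lines are group means. In each panel both control points lie above all 6 cyclin D1 points.

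The calls differed in how far they rested on single arrays. For wild type, TNFAIP2 stayed called in all 8 fits that each left out 1 array. CD40, ICAM1 and CFLAR lost the call without either empty vector replicate, CD83 also without wild-type replicate 3 and EBI3 also without wild-type replicate 1. TRAF1 was called in 3 of 8 such fits, NFKB2 and LTA in 1, and RELB, NFKBIE, TNFAIP3 and TNIP1 in 0. For T286A, TRAF1 was called in 3 of the 8, and CD40, ICAM1 and CFLAR in 1, the fit without wild-type replicate 2. No sign changed in any of these fits among the called results.

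T286A was then set directly against wild type. TNFAIP2 was the single called member, higher in T286A cells by 0.53 ± 0.079 (adjusted p = 0.022), which is 1 of 36 members against 0.598% of all genes called higher; 0 members were called lower, against 0.389%. Its level in T286A cells was 144% of that in wild-type cells. The call was kept without wild-type replicate 2 and without either empty vector replicate, and lost without any of the other 5 arrays, fits in which calls over all genes numbered 70 to 96, against 180 with all arrays. At an unadjusted limma p under 0.05, 7 members were higher in T286A cells (TNFAIP2, TNIP1, CD40, EBI3, TNF, BIRC2 and GADD45B) and 1, TRAF1, was lower, among 1306 higher and 1178 lower of 18231 genes. By arrays, 9 members were higher on every T286A array than on every wild-type array, against 9.94% of all genes, and 3 were lower, against 9.82%. Among the 6 of the 7 that were not called, differences ran from 0.13 for GADD45B to 0.29 for TNF.

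The 7 include genes with no overlap between the forms, such as TNIP1, at 0.21 ± 0.056 (adjusted p = 0.159), and EBI3, at 0.25 ± 0.072 (adjusted p = 0.198). TRAF1 ran the other way, at -0.19 ± 0.068 (adjusted p = 0.27). Among genes called with both forms, ICAM1 differed by 0.00 (95% interval -0.17 to 0.17), CFLAR by 0.06 (-0.07 to 0.19) and CD40 by 0.18 (0.04 to 0.31). The median over members was 0.03, and it turned to -0.034 with arrays centred on their medians and to -0.012 with housekeeping centring. The median over all genes was 0.00021, and moved with it to -0.065 and -0.042 under those centrings, so the median over members stayed above that over all genes in each case. Of the 9 members that fell with wild type alone, the direct test called a difference for 1, TNFAIP2.

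**Figure D4:**
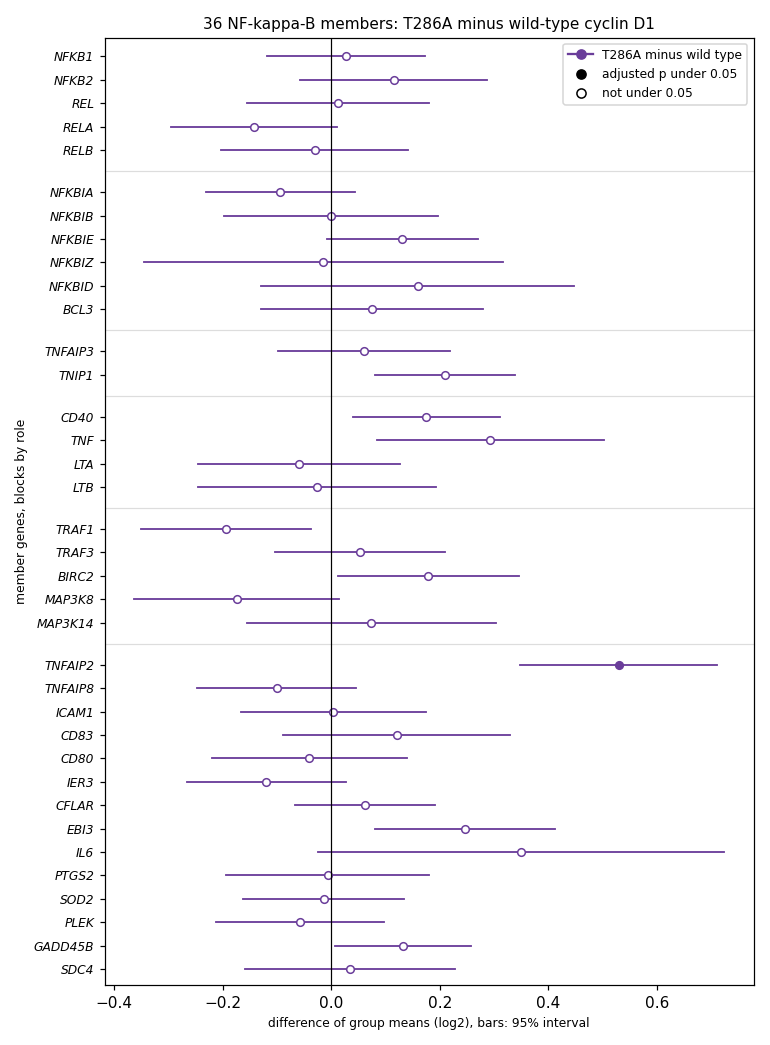
Difference T286A minus wild type (log2, horizontal axis) of the 36 members with 95% intervals, in blocks by role. TNFAIP2, at 0.53, is the single filled point (adjusted p under 0.05).

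Genes above NF-kappa-B and further targets were set beside the members. Of 32 measured upstream genes, which carry the signal from receptors to IkB, limma called 0 in any of the 3 comparisons, which is near the share of all genes called (0.192% lower and 0.34% higher with T286A, 1.14% and 0.603% with wild type, 0.389% and 0.598% between the forms). At an unadjusted p under 0.05, 3 were lower and 1 higher with T286A and 3 lower and 0 higher with wild type, and 1 was lower and 1 higher between the forms, beside the counts over all genes given above. Their median was -0.04 with each construct, and 18 had lower means with T286A and 24 with wild type. By arrays, 10 were lower on every T286A array than on both controls, against 16.7% of all genes, and 3 higher, against 15.2%. With wild type 8 were lower, against 15.3%, and 1 higher, against 15.2%. Between the forms 5 were lower in T286A cells, against 9.82%, and 0 higher, against 9.94%. TRADD was at -0.28 (adjusted p = 0.132) with T286A and -0.06 with wild type. The IKK kinase subunits CHUK and IKBKB differed from empty vector by 0.05 and 0.02 with T286A and by -0.01 and 0.03 with wild type. IKBKG, the regulatory subunit NEMO, was at -0.27 with T286A, where 1 array lay above the controls, and at -0.33 ± 0.17 (adjusted p = 0.452) with wild type, where all arrays lay below them. Of 29 further targets, 2 fell with T286A, the chemokine CCL3 and the amino acid oxidase IL4I1, and 0 rose, against 0.192% of all genes lower and 0.34% higher. With wild type 8 fell and 0 rose, against 1.14% and 0.603%: CCL3, IL4I1, CCL20, CCL22, CXCL8, BCL2A1, CD44 and DUSP2. Of these, CXCL8 averaged 4.37 over all arrays, below the median level of all genes, where signal over background is a limit. CCL20 was spread widely in wild-type cells, at 6.78, 5.59 and 6.42 (limma adjusted p = 0.0454 against empty vector). Medians over the 29 further targets were -0.22 with T286A and -0.25 with wild type.

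CCL3, which recruits T cells and monocytes, read 11.37, 11.30 and 11.40 in T286A cells, 11.29, 11.43 and 11.40 in wild-type cells and 11.96 and 11.95 in empty vector cells. Construct arrays lay below the controls, at -0.60 ± 0.071 (adjusted p = 0.0203) for T286A and -0.58 ± 0.071 (adjusted p = 0.0095) for wild type. BCL2A1, a survival protein of the BCL2 family, was at -0.41 ± 0.068 (adjusted p = 0.051) for T286A and -0.41 ± 0.068 (adjusted p = 0.0264) for wild type. IL4I1 fell in each, at -0.81 ± 0.075 (adjusted p = 0.0105) for T286A and -0.60 ± 0.075 (adjusted p = 0.0109) for wild type. Like TNFAIP2, the chemokine CCL22 and the phosphatase DUSP2 were also called between the forms, 0.90 ± 0.061 (adjusted p = 0.000665) and 0.62 ± 0.073 (adjusted p = 0.00839) higher in T286A cells. That is 2 of 29 further targets called higher, against 0.598% of all genes, and 0 called lower, against 0.389%. How far calls of further targets rest on single arrays is not given here. The list of further targets was written with earlier results of these data known, so its counts are a description.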

How the data were processed

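RNA of 8 JVM13 samples was measured on an Affymetrix array. Per the submitters' processing notes, the authors made the deposited log2 values with R 3.5.0 and RMA. This method subtracts background, gives all arrays the same intensity distribution and summarises probe sets. It removes any change in total mRNA per cell, so differences are relative to other genes. Of 48864 probe sets, 10 controls were dropped; 45220 were annotated to 1 gene, 1325 to several and 2309 to none, by the platform's annotation. Scanner files, detection calls and scan batches were not used here; precision is limited by having 8 arrays.

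The brightest probe set stood for each of 18231 genes. Groups and replicate numbers came from sample titles. A mean per group was fitted with limma 3.58.1 in R 4.3.3 (lmFit and eBayes, two-sided, 5 residual and 3.27 prior degrees of freedom, no intensity filter, Benjamini-Hochberg over all genes), and the fit was tested on simulated data. Members and lists were chosen with earlier results of these data known. Every member is accounted for; per-array values are printed for subunits, called members and 4 IkB genes, and for a few others. Of the marker lists, the B-cell list had 1 called gene, CD22, in wild type against empty vector; the T and NK, monocyte and stromal lists had 0 called by limma. Promoter sequences are from RefSeq. Alternatives were another probe set rule, scaling, filter, variance model, array weights, fewer arrays and a replicate term.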

Additional observations from a re-analysis of the deposited data

Results flagged for a closer look

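The effects of the constructs on 3 genes differed by the direct test of T286A against wild type. TNFAIP2 was 0.53 higher in T286A cells (log2), CCL22 was 0.90 higher and DUSP2 was 0.62 higher. Each was lower than empty vector on average with both forms, and by more with wild type. CCL22 and DUSP2 are further targets outside the 38 members. What sets the forms apart was not tested.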

How the results depend on the processing

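All 18 called results of members kept their sign under all 17 other settings, 8 of which each left out 1 array. Counts of called members moved more than the differences did. For T286A against empty vector the count of 4 became 8 with the mean of all probe sets, 15 with genes at or above the median level only, 14 with eBayes using trend and robust, 9 with array weights, 0 with only the arrays of the groups compared, 1 with every probe set fitted singly (added after seeing the data) and 0 to 4 leaving out 1 array. For wild type the 13 became 6 with each array centred on its median, 4 with only the groups compared, 7 with every probe set fitted singly and 1 to 8 leaving out 1 array. Calls over all genes moved as well: for T286A the 97 became 190 with the mean of all probe sets, 527 of 9116 genes with the filter, 626 with trend and robust, 317 with array weights and 4 with only the groups compared; for wild type the 317 became 341 with median centring and 68 with only the groups compared. For T286A against wild type the 1 became 0 with the mean of all probe sets, 2 with the intensity filter, 4 with trend and robust and 0 to 1 leaving out 1 array. A filter or fewer arrays changes the number of genes or samples by construction; for the others the cause was not tested.

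The median member difference for T286A moved to -0.19 with the mean of all probe sets, -0.27 with the filter and -0.27 with housekeeping centring, and ran from -0.27 to -0.19 leaving out 1 array. For wild type it moved to -0.20 with the mean of all probe sets, -0.28 with the filter, -0.18 with median centring and -0.23 with quantile normalization, and ran from -0.26 to -0.22. Between the forms its sign turned, to -0.034 with median centring and -0.012 with housekeeping centring, and it ran from 0.018 to 0.061 leaving out 1 array. These centrings move all genes alike: the median over all genes was then -0.065 and -0.042 between the forms, 0.069 for wild type with median centring and -0.048 for T286A with housekeeping centring, so these moves are shifts of the whole scale. Of 90 differences of members that were not called, 34 changed sign in some setting, all at sizes up to 0.17, and 0 of these were then called; 19 were called in some setting.

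Deviations of same-numbered arrays from their group means correlated at -0.09 to 0.12, against -0.11 to 0.10 for others. The 2 empty vector arrays deviate in opposite ways by construction, so these ranges cannot decide whether replicate numbers pair the arrays. With the replicate number as a block the counts were 0 for T286A, 2 for wild type and 0 between the forms, and over all genes 3, 71 and 86. Signal over background limits the 5 members below the median level of all genes.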
